A study of Mus musculus with 12 samples.

Results

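The response of glioma cells to low oxygen was measured by comparing 3 arrays of cells kept in hypoxia with 3 arrays of cells kept in normoxia, all with the solvent DMSO. These were 6 of the 12 arrays of the study, and every transcript cluster that was not a control entered the comparison, 22206 of the 28846 entries of the value table. A transcript cluster is the set of probes of 1 gene on the Clarion S mouse array, and 19505 genes could be named. The cells were cultures labelled S100β-v-erbB/p53-/- TSC1, of the FVB-NJ strain, cultured in B27-supplemented DMEM F-12 medium. All 4 groups share this genotype: the oncogene v-erbB, an active relative of the epidermal growth factor receptor driven by the S100β promoter, and loss of p53 in the normoxia cells as well as in the hypoxia cells. The groups were hypoxia with DMSO, hypoxia with BFA, hypoxia with EHT-1864 and normoxia with DMSO, 3 arrays each, after 16 h of exposure. EHT-1864 was given at 1 µM, and the BFA dose stands as 1 µM in the treatment protocol and as 0.1 µM in the series title. The arrays of both compound groups enter here only through the shared estimate of the spread. Neither the oxygen tension nor the meaning of TSC1 is given in the sources used here, and whether equally numbered arrays of the groups share a culture is not stated, so p-values measure the spread between arrays, which may be partly technical.

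Cells sense oxygen through the hypoxia-inducible factors (HIF). In normal oxygen, prolyl hydroxylases of the EGLN family mark the HIF alpha subunits, the VHL ubiquitin ligase removes them, and the asparagine hydroxylase HIF1AN blocks their binding to coactivators. In low oxygen the alpha subunits pair with ARNT and bind short DNA sequences with the core ACGTG or GCGTG near genes of glucose uptake, glycolysis, blood vessel growth, matrix and survival. Some HIF targets, among them hydroxylases of the EGLN family, dampen the response.

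Values are log2 signals, so a difference of 1 is a doubling of signal. A log2 change is the mean of the hypoxia arrays minus the mean of the normoxia arrays, and the value after "±" is its standard error in the limma fit over all 12 arrays, with n = 3 arrays in each group. A gene rose or fell where its adjusted p (limma, Benjamini-Hochberg over all transcript clusters) was under 0.05. The background floor of an array was the 95th percentile of its negative control entries, between 5.59 and 5.64 on the 6 arrays. The 6 arrays were alike: their median log2 signal lay between 5.44 and 5.46 in hypoxia and between 5.41 and 5.43 in normoxia, and 48.14% to 48.42% of transcript clusters were above the floor in hypoxia, against 47.74% to 48.07% in normoxia. Where all 3 arrays of a group were below the floor, the change is given as "at least N-fold", which sets the mean of the detected group against, on each array, its floor or its own signal, whichever is higher.

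Among the genes past the threshold, more rose than fell in hypoxia, and the rises were larger. Of the 22206 transcript clusters, 468 rose (2.11%) and 125 fell (0.563%), 593 in all (2.67%). Of these 593, 49 were below the floor on all 6 arrays. Of the 125 that fell, 21 were below the floor on every hypoxia array. The rises had a median log2 change of 0.85, and 171 had a fitted change of at least 2-fold (0.77%), of which 119 were above the floor on at least 1 normoxia array. Of the 43 with a fitted change of at least 4-fold 26 were so detected, and of the 15 at 8-fold 8 were. For those below the floor throughout normoxia only a bound is measured, which reached 2-fold for 14 of 52, 4-fold for 5 of 17 and 8-fold for 1 of 7. The falls had a median of −0.61, 4 of them were at least 2-fold (0.018%), and none reached 4-fold. Over all transcript clusters the median change was −0.03, with an SD of 0.30. An unadjusted p under 0.05 in limma was reached by 3507 of the 22206, in either direction. Counted over all 22206 transcript clusters, those past the threshold included, the balance was the other way. Of these changes 9832 were positive. All hypoxia arrays lay below all normoxia arrays for 3602 transcript clusters (16.2%) and above them for 3112 (14%). Among the 10991 transcript clusters above the floor on at least 3 arrays the median change was 3e-04, so their median did not show this balance. The counts of rises and falls depended on the arrays in the fit. A fit of the 6 DMSO arrays alone gave 819 rises and 415 falls. Leaving out any 1 DMSO array from the fit of all arrays gave 228 to 291 rises and 23 to 28 falls. Those fits also had fewer arrays in 1 of the compared groups. Leaving out BFA array 1 from the fit of all arrays gave 629 rises and 269 falls. The cause of these differences was not tested. A smaller signal can mean less RNA per cell or fewer cells that carry it, and these cannot be told apart here, nor would a change in total RNA show after this normalization.

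**Figure D1:**
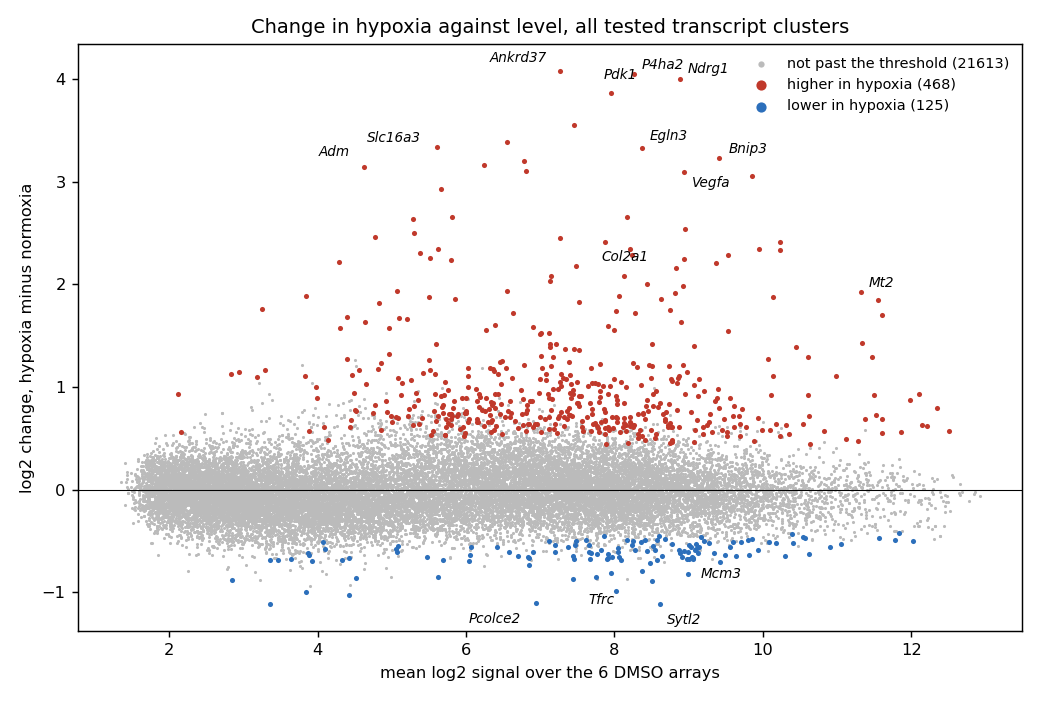
Log2 change in hypoxia against normoxia (vertical axis) over the mean log2 signal of the 6 DMSO arrays (horizontal axis), 1 point for each of 22206 transcript clusters. Red points rose (468), blue points fell (125) and grey points did not pass; among genes detected in both groups the largest rise is P4ha2 (4.05) and the largest fall Sytl2 (−1.12), and points against undetected normoxia signals show fitted values only.

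The promoters of the genes that changed most are shown because HIF binds DNA directly. The sequences are the 250 bases before the annotated start site, in the direction of transcription, from the RefSeq annotation of GRCm38.p6. They belong to the first 5 of the 15 largest rises, and the first 3 of the 15 largest falls, that have an entry in that table. Capitals mark every ACGTG or GCGTG, on either strand, so that CACGT and CACGC are the same cores read on the opposite strand.
Ankrd37, chr8:45999851-46000100, minus strand: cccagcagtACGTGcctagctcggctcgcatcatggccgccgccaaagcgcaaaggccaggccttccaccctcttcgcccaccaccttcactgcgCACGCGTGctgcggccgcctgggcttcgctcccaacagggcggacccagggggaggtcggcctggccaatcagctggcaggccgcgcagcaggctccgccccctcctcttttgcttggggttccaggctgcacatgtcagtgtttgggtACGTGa
P4ha2, chr11:54100674-54100923, plus strand: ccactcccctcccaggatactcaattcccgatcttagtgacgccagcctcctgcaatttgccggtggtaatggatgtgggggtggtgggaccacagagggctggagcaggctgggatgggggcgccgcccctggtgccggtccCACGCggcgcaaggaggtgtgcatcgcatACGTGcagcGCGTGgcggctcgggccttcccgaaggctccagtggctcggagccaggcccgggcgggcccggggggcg
Pdk1, chr2:71872974-71873223, plus strand: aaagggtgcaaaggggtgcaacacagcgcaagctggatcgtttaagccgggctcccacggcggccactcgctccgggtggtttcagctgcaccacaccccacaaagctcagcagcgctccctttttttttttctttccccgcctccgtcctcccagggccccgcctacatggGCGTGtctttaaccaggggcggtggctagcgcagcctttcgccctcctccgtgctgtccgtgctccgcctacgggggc
Ppp1r3c, chr19:36736605-36736854, minus strand: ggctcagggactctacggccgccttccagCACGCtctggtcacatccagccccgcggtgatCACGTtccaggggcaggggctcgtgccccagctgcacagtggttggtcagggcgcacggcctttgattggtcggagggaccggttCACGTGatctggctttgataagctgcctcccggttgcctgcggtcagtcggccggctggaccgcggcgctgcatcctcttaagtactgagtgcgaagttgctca
Slc16a3, chr11:120948817-120949066, plus strand: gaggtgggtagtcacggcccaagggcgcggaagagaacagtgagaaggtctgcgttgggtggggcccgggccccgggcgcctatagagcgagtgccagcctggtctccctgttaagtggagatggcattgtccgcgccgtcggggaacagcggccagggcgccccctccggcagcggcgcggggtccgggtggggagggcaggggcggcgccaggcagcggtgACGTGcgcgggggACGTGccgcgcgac
Pcolce2, chr9:95637378-95637627, plus strand: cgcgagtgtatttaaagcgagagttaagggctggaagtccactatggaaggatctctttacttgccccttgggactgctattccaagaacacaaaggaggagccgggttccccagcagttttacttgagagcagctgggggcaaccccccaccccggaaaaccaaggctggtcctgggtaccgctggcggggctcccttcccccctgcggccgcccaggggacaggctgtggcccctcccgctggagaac
Cytl1, chr5:37735269-37735518, plus strand: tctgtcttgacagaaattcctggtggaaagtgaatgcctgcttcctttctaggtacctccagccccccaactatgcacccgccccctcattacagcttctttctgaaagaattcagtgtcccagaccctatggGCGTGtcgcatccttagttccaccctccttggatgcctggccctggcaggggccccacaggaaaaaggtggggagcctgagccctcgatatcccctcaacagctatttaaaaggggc
Lsm2, chr17:34981604-34981853, plus strand: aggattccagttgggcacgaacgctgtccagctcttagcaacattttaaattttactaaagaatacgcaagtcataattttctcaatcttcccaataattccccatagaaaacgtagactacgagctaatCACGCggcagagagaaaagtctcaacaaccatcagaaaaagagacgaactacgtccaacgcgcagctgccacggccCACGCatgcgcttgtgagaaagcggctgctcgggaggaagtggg

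In these windows ACGTG occurred 2 times in the Ankrd37 promoter, 1 time in that of P4ha2, 3 times over both strands in that of Ppp1r3c and 2 times in that of Slc16a3. The last ACGTG of Ankrd37 began 6 bases before the start, and those of Slc16a3 began 27 and 14 bases before it. Pdk1 held 1 GCGTG and no ACGTG, Pcolce2 held neither core, Cytl1 held 1 GCGTG and Lsm2 held 2. Of the 3 ACGTG counted for Ppp1r3c, 2 are the 2 strands of 1 CACGTG.

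The ACGTG core was more frequent in the promoters of genes that rose. Windows of 300 bases, from 250 before to 50 after the start, were searched on both strands for the 15691 of 19505 genes that had 1 or more. By gene, at least 1 ACGTG stood in a window of 50.8% of the 120 genes that rose at least 2-fold and of 42.4% of all 335 genes that rose, against 24.2% of the 91 genes that fell. It stood in 29.6% of the 7683 genes that did not pass but were above the floor on at least 3 of the 6 arrays, and in 24% of all 15691 genes. Genes that rose had more windows each, so the shares were also taken over windows: 41.9% of those of genes that rose at least 2-fold, 34.4% of those of genes that rose, 21.1% of those of genes that fell, 25.5% of those of the detected genes that did not pass, 21.4% of those of all named genes and 19.6% of all 32851 windows of the promoter table held it. The core GCGTG was about as frequent in genes that rose as in detected genes that did not pass: 51.9% of the windows of genes that rose, 34.9% of those of genes that fell, 52.3% of those of the detected genes that did not pass and 32.4% of all windows held it. Base composition moved with these shares in part, since the mean GC content was 60.3% for genes that rose, 57.8% for genes that fell, 61.4% for the detected genes that did not pass and 56.7% over all genes. Its part in the shares was not tested. A match describes letters, not a site bound in these cells.

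The oxygen sensors themselves responded at the RNA level while the HIF subunits did not pass. Egln3, a HIF prolyl hydroxylase, had log2 signals of 10.18, 9.89 and 10.05 in hypoxia, against 6.67, 6.96 and 6.50 in normoxia. Every hypoxia array was above every normoxia array by more than 2.9 log2 units, and its rise was 3.33 ± 0.17 (10.04-fold, adjusted p = 1.36e-07). Egln1, the main HIF prolyl hydroxylase, had 10.63, 10.77 and 10.70 in hypoxia, against 9.45, 9.43 and 9.41 in normoxia. Its rise was 1.27 ± 0.21 (adjusted p = 0.00519), again with no overlap between the groups. The third member, Egln2, did not pass (−0.10 ± 0.17, adjusted p = 0.851), and neither did Hif1an (−0.05 ± 0.16).

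Among the partners of VHL, the gene for the ligase's recognition subunit rose while the other components did not pass. Vhl rose by 0.74 ± 0.15 (adjusted p = 0.0178), while the other ligase components Elob, Eloc, Cul2 and Rbx1 lay between −0.25 and −0.14 and did not pass. Hif1a had a mean of 9.33 in hypoxia, against 9.21 in normoxia (0.12 ± 0.13, adjusted p = 0.732), and its partners Arnt and Arnt2 had changes of 0.09 ± 0.13 and 0.04 ± 0.11. Epas1, which encodes HIF-2 alpha, was above the floor on 1 hypoxia array and on no normoxia array, and Hif3a was below the floor on all 6. Among the coregulators, Cited2, a competitor of HIF for the coactivator p300, rose by 0.57 ± 0.12 (adjusted p = 0.0242), and Ep300 and Crebbp did not pass. The calls of Vhl and Cited2 ended whichever of the 6 arrays was left out (adjusted p up to 0.0961 for Vhl and 0.109 for Cited2).

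**Figure D2:**
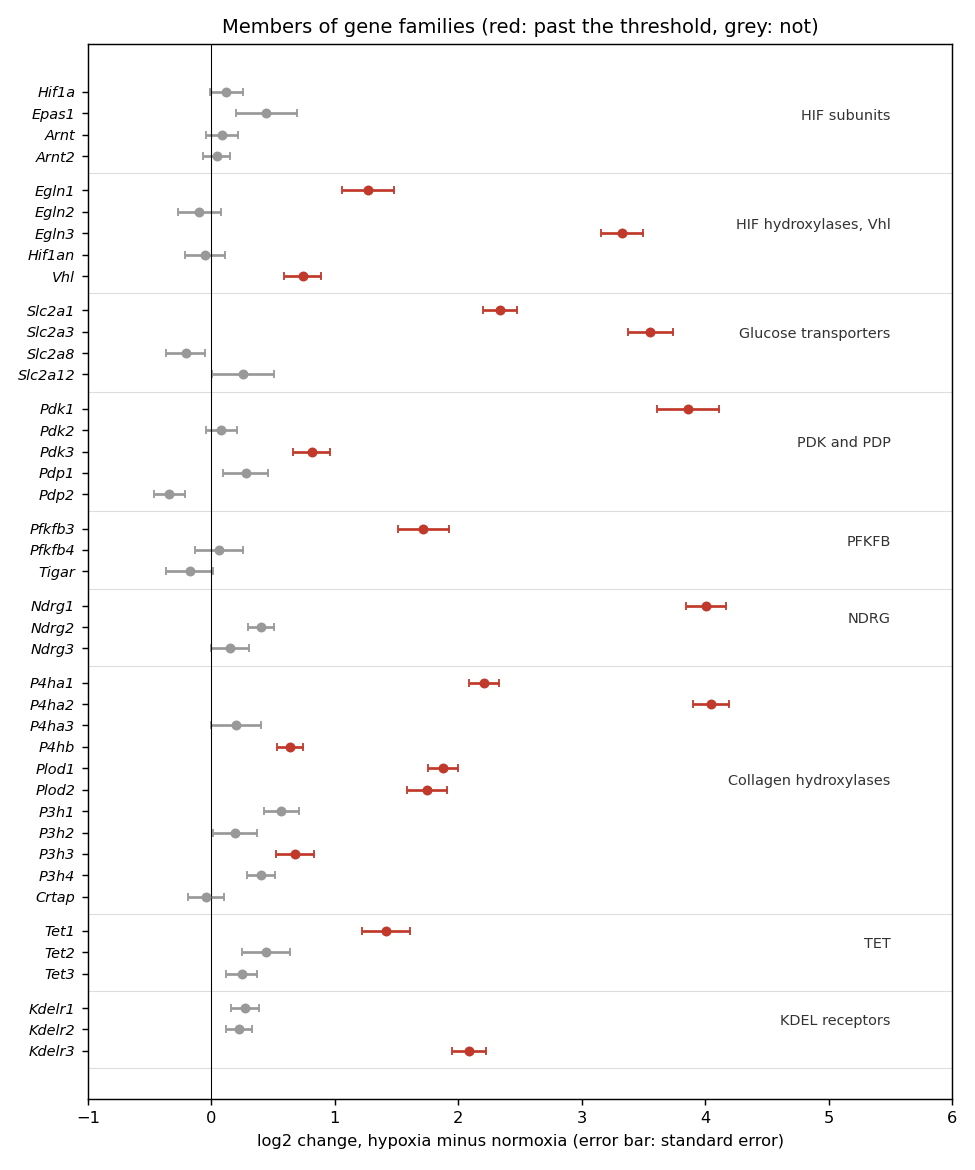
Log2 change in hypoxia against normoxia (horizontal axis) of members of 9 gene families that were detected above background, with bars for the standard error of the limma fit. Red points passed the threshold and grey points did not; in most families 1 or 2 members carry the change, such as Slc2a3 and Slc2a1 among the glucose transporters, Pdk1 among the PDK enzymes and Ndrg1 among the NDRG genes.

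Of the vessel growth factors and peptides, Vegfa, Adm and Apln rose and most others did not pass. Vegfa, the main growth factor of blood vessels, had 10.31, 10.67 and 10.48 in hypoxia, against 7.64, 7.34 and 7.21 in normoxia, 8.52-fold apart without overlap (adjusted p = 1.01e-06). Adm, the vessel-dilating peptide adrenomedullin, had 6.33, 6.30 and 5.95 in hypoxia and was below the floor on all normoxia arrays (3.16, 3.10 and 2.88), which gives at least 1.499-fold (adjusted p = 1.01e-06). The peptide apelin, Apln, differed by at least 2.47-fold (adjusted p = 1.15e-05), and Anxa2, a cell-surface receptor for plasminogen and its activator, rose by 1.08 ± 0.11. Of the 20 measured angiogenic factors and receptors these 4 rose, 16 did not pass, and the median change was 0.22, against −0.03 over all transcript clusters. The VEGF receptor genes Kdr and Flt1 were below the floor on all 6 arrays, and Vegfb (0.23 ± 0.14) and Pdgfa (0.21 ± 0.11) did not pass.

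Genes of glucose uptake and of nearly all measured steps of glycolysis rose. Slc2a3, a high-affinity glucose transporter typical of neurons, had 9.34, 9.11 and 9.23 in hypoxia, against 5.67, 5.68 and 5.67 in normoxia (3.56 ± 0.18, adjusted p = 1.36e-07). The widespread transporter Slc2a1 had 11.71, 11.17 and 11.30 in hypoxia, against 9.15, 9.07 and 8.96 in normoxia (2.34 ± 0.14, adjusted p = 5.22e-07). No hypoxia array of either gene came near a normoxia array, and the other 5 transporters measured did not pass, 3 of them below the floor.

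Of the 15 measured glycolytic enzymes, 13 rose, with a median change of 1.29. All 3 hypoxia arrays were above all 3 normoxia arrays for 14 of the 15, an ordering seen for 14% of all transcript clusters. When each of the 6 arrays was left out in turn, 11 or 12 rose. Pfkm lost its call in every such fit (adjusted p up to 0.12), and Gapdh without hypoxia array 3 or normoxia array 2 (up to 0.052). Gpi1 and Eno1 were not analysed here. Eno2, the neuronal form of enolase, was below the floor in normoxia and at least 2.85-fold higher in hypoxia (adjusted p = 6.58e-06). Tpi1, triosephosphate isomerase, had 11.28, 11.51 and 11.52 in hypoxia, against 9.03, 9.03 and 8.99 in normoxia. Pfkl, the liver form of phosphofructokinase, rose by 2.28 ± 0.13, the hexokinase Hk2 by 2.18 ± 0.21, the aldolase Aldoa by 1.84 ± 0.12 and the phosphoglycerate kinase Pgk1 by 1.43 ± 0.11. The platelet form of phosphofructokinase, Pfkp (0.58 ± 0.21, adjusted p = 0.185), and the lactate dehydrogenase subunit Ldhb (−0.10 ± 0.15) were the exceptions. None of the 6 measured enzymes of the pentose phosphate pathway, the branch that makes NADPH and ribose, passed in limma, with 1 lower at an unadjusted p under 0.05 and none in the fit of the 6 arrays alone (median −0.07). The pathway enzymes G6pdx and Tkt were not analysed here.

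Among the enzymes that switch pyruvate dehydrogenase off and on, Pdk1 had the largest rise. Pdk1, a kinase that shuts off pyruvate dehydrogenase, had 9.79, 9.99 and 9.88 in hypoxia, against 6.17, 5.78 and 6.12 in normoxia. The groups were 3.62 log2 units apart at their nearest arrays, and the rise was 14.5-fold (adjusted p = 1.11e-06). Pdk3 rose by 0.81 ± 0.15, a call that ended without hypoxia array 1 or normoxia array 2 (adjusted p up to 0.0645). Pdk2 did not pass (0.08 ± 0.13), Pdk4 was below the floor, and the opposing phosphatases Pdp1 (0.28 ± 0.18) and Pdp2 (−0.34 ± 0.13) did not pass. Pfkfb3, which makes the activator of phosphofructokinase, rose by 1.72 ± 0.21 (adjusted p = 3.93e-04), while its relative Pfkfb4 had 0.06 ± 0.19.

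Of 6 genes of lactate and acid export 3 rose, or 2 without hypoxia array 3 or normoxia array 1. Slc16a3, the lactate exporter MCT4, had 7.23, 7.44 and 7.16 in hypoxia and was below the floor on every normoxia array (3.62, 3.89 and 4.32), at least 3.18-fold apart. Car9, a carbonic anhydrase on the cell surface, was at least 2.88-fold higher (adjusted p = 5.75e-06). Bsg, the chaperone of the lactate transporters, rose by 0.62 ± 0.11, a call that ended without hypoxia array 3 or normoxia array 1 (adjusted p up to 0.0600). The lactate transporter Slc16a1 (0.28 ± 0.14), the carbonic anhydrase Car12 (0.70, adjusted p = 0.0808) and the bicarbonate transporter Slc4a4 (−0.34) did not pass.

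Several genes of glycogen synthesis rose. Ppp1r3c, a targeting subunit that brings phosphatase to glycogen, had 8.39, 7.97 and 8.37 in hypoxia and was below the floor in normoxia, at least 6.21-fold apart (adjusted p = 2.05e-08). Pgm1, phosphoglucomutase, rose by 2.16 ± 0.12, the muscle glycogen synthase Gys1 by 1.63 ± 0.15, and the branching enzyme Gbe1 was at least 2.26-fold higher (adjusted p = 2.52e-04). In all, 6 of 17 glycogen genes rose (median 0.33). The other 2 were Ppp1r3b, below the floor in both groups, and Epm2a, the glycogen phosphatase laforin, at least 1.402-fold higher. The call of Epm2a ended whichever of the 6 arrays was left out (adjusted p up to 0.168), and that of Ppp1r3b ended in 5 of these 6 fits (up to 0.144). The lysosomal glycogen enzyme Gaa (0.36 ± 0.12) and the precursor enzyme Ugp2 (−0.24 ± 0.13) did not pass.

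**Figure D3:**
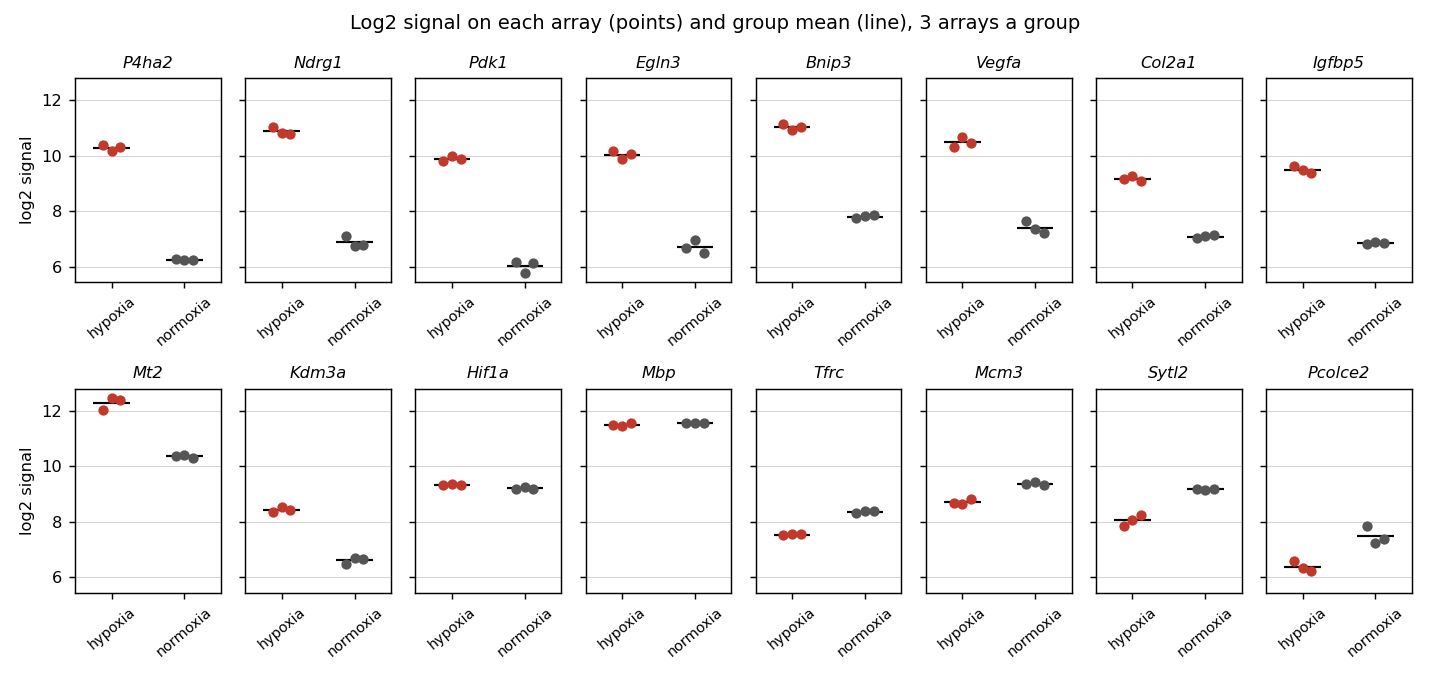
Log2 signal (vertical axis) of 16 genes on each of the 3 hypoxia arrays (red points, left) and the 3 normoxia arrays (grey points, right), with a line at each group mean. P4ha2, Pdk1 and Vegfa are separated by several log2 units, Hif1a and Mbp lie at similar levels in both groups, and Tfrc, Mcm3, Sytl2 and Pcolce2 are lower in hypoxia.

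Of 9 genes of mitophagy and hypoxic mitochondria 5 rose, while those of the respiratory chain were slightly lower without passing in most cases. Bnip3, a receptor that marks mitochondria for autophagy, had 11.13, 10.94 and 11.02 in hypoxia, against 7.74, 7.81 and 7.85 in normoxia (3.23 ± 0.14, adjusted p = 3.95e-08). Its relative Bnip3l had 10.62, 10.62 and 10.83 in hypoxia, against 9.60, 9.62 and 9.53 in normoxia (1.11 ± 0.12, adjusted p = 1.74e-04). Both pairs of groups were clearly apart, by about 3.1 and 1.0 log2 units at their nearest arrays. Fam162a, a mitochondrial HIF target, rose by 2.25 ± 0.13, Higd1a, a small protein that binds the respiratory chain, by 1.86 ± 0.16, and the matrix protease Lonp1 by 0.77 ± 0.14. The mitophagy receptor Fundc1 (0.28 ± 0.11) did not pass. Of 25 autophagy genes 1 rose, Wipi1 (0.71 ± 0.13), while 2.11% of all transcript clusters rose. The call of Wipi1 ended without hypoxia array 3 or normoxia array 3 (adjusted p up to 0.0659). Map1lc3b and Sqstm1 had 0.12 ± 0.13 and 0.22 ± 0.10.

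Of 36 complex I genes 1 fell, Ndufa4 (−0.44 ± 0.10, adjusted p = 0.0437), a protein since assigned to complex IV. Over all transcript clusters 0.563% fell. Of 30 genes of complexes III to V 1 fell, the cytochrome c1 gene Cyc1, with 7.88, 8.08 and 8.04 in hypoxia, against 8.54, 8.44 and 8.53 in normoxia (adjusted p = 0.0384). Of 47 mitochondrial ribosomal genes 3 fell, Mrpl16 (−0.67 ± 0.13), Mrps25 (−0.54 ± 0.13) and Mrpl11 (−0.50 ± 0.12). Negative changes were common, past the threshold or not: 28 of 36, 28 of 30 and 42 of 47 genes had one, with medians of −0.16, −0.17 and −0.21. In 31 of 47 mitochondrial ribosomal genes every hypoxia array was below every normoxia array, against 16.2% of all transcript clusters. None of 22 TCA cycle genes passed in limma, with 4 lower at an unadjusted p under 0.05 and 1 higher in the fit of the 6 arrays alone (median −0.12). Of all 22206 transcript clusters, 3507 had an unadjusted p under 0.05, in either direction. The calls of Ndufa4, Cyc1, Mrps25 and Mrpl11 ended whichever of the 6 arrays was left out, with adjusted p up to 0.182, 0.17, 0.17 and 0.197 in that order. That of Mrpl16 ended in 5 of these 6 fits (adjusted p up to 0.0729).

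Enzymes that modify collagen, among them hydroxylases that use oxygen as the HIF hydroxylases do, rose in part. P4ha2, a catalytic subunit of collagen prolyl 4-hydroxylase, had 10.38, 10.17 and 10.32 in hypoxia, against 6.26, 6.24 and 6.22 in normoxia. The gap between the nearest arrays was 3.91 log2 units, and the rise was 16.6-fold (adjusted p = 1.53e-08). The paralog P4ha1 had 10.43, 10.48 and 10.52 in hypoxia, against 8.18, 8.33 and 8.30 in normoxia (2.21 ± 0.12), while P4ha3 did not pass (0.20 ± 0.20). The lysyl hydroxylases Plod1 and Plod2 rose by 1.88 ± 0.12 and 1.75 ± 0.16, the shared beta subunit P4hb by 0.64 ± 0.10, and the prolyl 3-hydroxylase P3h3 by 0.68 ± 0.16. The call of P3h3 ended in 5 of the 6 fits that each left out 1 array (adjusted p up to 0.158). Of the 16 measured genes of this family 6 rose (median 0.30), and the lysyl oxidases Lox, Loxl1 and Loxl4 were below the floor in both groups.

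Their substrates changed less. Col2a1, the fibrillar collagen of cartilage, had 9.17, 9.25 and 9.08 in hypoxia, against 7.02, 7.11 and 7.13 in normoxia (2.08 ± 0.16, adjusted p = 5.45e-06). Col18a1, Col6a2, Col4a2 and Col6a1 rose by 0.89 ± 0.17, 0.71 ± 0.14, 0.55 ± 0.12 and 0.54 ± 0.13. These were 5 of 23 collagens, with a median change of 0.02 that was −0.0041 when each array's median was subtracted. When each of the 6 arrays was left out in turn, 1 or 2 collagens rose, and Col6a2, Col4a2 and Col6a1 were never among them (adjusted p up to 0.104, 0.144 and 0.197), while Col18a1 was lost without hypoxia array 1 or normoxia array 3 (up to 0.0864). The matrix protein fibronectin, Fn1, rose by 1.18 ± 0.20, and the laminin chains Lama1 (1.03 ± 0.22) and Lama4 (0.70 ± 0.16) and tenascin C, Tnc (0.83 ± 0.16), also rose, 4 of 24 integrins, laminins and their ligands. The calls of Lama1, Lama4 and Tnc ended in at least 5 of the 6 fits that each left out 1 array (adjusted p up to 0.133, 0.162 and 0.0857). None of 23 metalloproteinases and inhibitors passed in limma, with 1 higher at an unadjusted p under 0.05 and none in the fit of the 6 arrays alone.

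Chromatin enzymes of the same oxygen-using class rose in part. Kdm3a, a demethylase of histone H3 lysine 9, had 8.35, 8.53 and 8.42 in hypoxia, against 6.47, 6.71 and 6.65 in normoxia (1.82 ± 0.18, adjusted p = 7.16e-05). Kdm5b, which acts on lysine 4, had 8.07, 7.76 and 7.70 in hypoxia, against 6.61, 6.35 and 6.30 in normoxia (1.42 ± 0.19, adjusted p = 9.41e-04). The arrays of the 2 groups did not overlap for either gene. Jmjd6 rose by 0.93 ± 0.13, and Kdm7a, Kdm6b and Kdm4b by 0.93 ± 0.16, 0.93 ± 0.18 and 0.91 ± 0.19. With Kdm4a (0.58 ± 0.14, adjusted p = 0.0471, and up to 0.213 in the fits that left out 1 array, none of which kept its call), 7 of 19 members rose (median 0.53), and 3 to 6 rose when each of the 6 arrays was left out in turn, the calls of Kdm7a, Kdm6b and Kdm4b ending in at least 2 of these fits (adjusted p up to 0.0535, 0.0960 and 0.102). Kdm1a, a demethylase that uses FAD and not the iron and 2-oxoglutarate of the others, did not pass (−0.25 ± 0.13), nor did Kdm6a (−0.11 ± 0.13). Of the TET enzymes, which oxidise methylcytosine, Tet1 had 7.96, 8.03 and 7.76 in hypoxia, against 6.76, 6.44 and 6.30 in normoxia (1.41 ± 0.19, adjusted p = 0.00102), and Tet2 (0.44 ± 0.19) and Tet3 (0.24 ± 0.12) did not pass.

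Some regulators of the circadian clock rose, and 1 antagonist of MYC. Ciart, a clock repressor, was below the floor in normoxia and at least 6.85-fold higher in hypoxia, with 8.46, 8.30 and 8.40 (adjusted p = 1.36e-07). Bhlhe40, a basic helix-loop-helix repressor, had 10.22, 10.25 and 10.22 in hypoxia, against 7.67, 7.60 and 7.79 in normoxia (2.54 ± 0.12), and its paralog Bhlhe41 was at least 1.90-fold higher. Of the positive regulators, Rora rose by 1.30 ± 0.19 and Arntl by 1.01 ± 0.13, and Npas2, above the floor on 2 hypoxia arrays, was at least 1.01-fold higher (adjusted p = 0.00115). Of 18 such genes 7 rose (median 0.46), and the repressor genes Per1, Per2, Per3, Cry1, Cry2, Nr1d1 and Nr1d2 did not pass, with Cry2 at 0.48 ± 0.15, nor did Clock (−0.10 ± 0.13). In the MYC network Mxi1, a MAX partner that opposes MYC, had 9.68, 9.72 and 9.62 in hypoxia, against 8.59, 8.69 and 8.50 in normoxia (1.08 ± 0.12, adjusted p = 2.31e-04). It was the only 1 of 12 members that passed, with Myc itself at 11.84 in hypoxia, against 11.80 in normoxia.

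**Figure D4:**
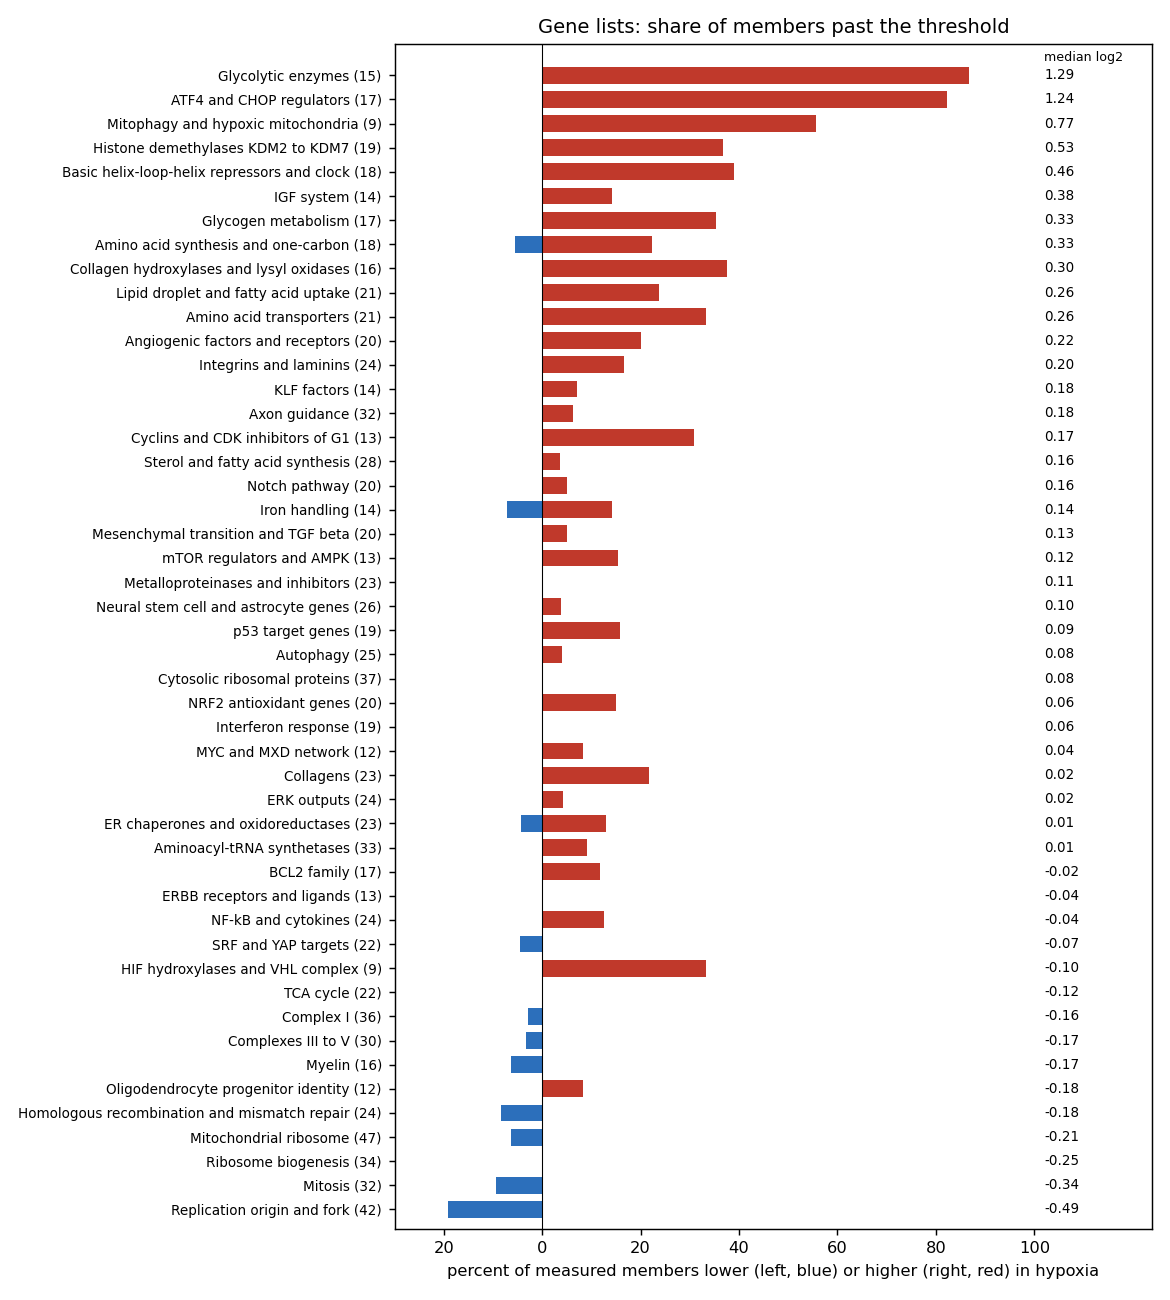
Percent of measured members of each gene list that rose (red, to the right) or fell (blue, to the left) in hypoxia, with the number measured in brackets and the median log2 change at the right. Lists with fewer than 9 measured members and the lists of cell type markers are not shown. Glycolytic enzymes and the ATF4 and CHOP genes have the highest shares that rose, and replication genes the highest share that fell; over all transcript clusters 2.11% rose and 0.563% fell.

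Most genes of a list around ATF4, a factor that links stress to amino acid supply and translation, rose. Amino acid transporters, synthesis enzymes and tRNA synthetases were counted in lists of their own, where smaller shares rose. Of 17 measured genes around the stress factors ATF4 and CHOP, 14 rose, with a median change of 1.24 and no member below 0. When each of the 6 arrays was left out in turn, 12 or 13 rose. Cebpg lost its call in every such fit (adjusted p up to 0.0841), and Stc2 without normoxia array 3 (0.05002). Ddit4, an inhibitor of the growth kinase mTOR, had 11.15, 11.04 and 11.16 in hypoxia, against 8.78, 8.90 and 8.65 in normoxia (2.34 ± 0.19, adjusted p = 1.01e-05). Ddit3, which encodes CHOP, had 9.14, 8.77 and 8.77 in hypoxia, against 7.41, 6.98 and 7.08 in normoxia (1.74 ± 0.16). The hypoxia and normoxia arrays were apart in both genes. Nupr1, a small stress regulator, rose by 2.28 ± 0.17, the pseudokinase Trib3 by 1.88 ± 0.20 (adjusted p = 1.40e-04), and the secreted glycoprotein Stc1 was at least 1.93-fold higher. Fgf21, a stress hormone, passed (adjusted p = 0.00289) but was above the floor on only 1 hypoxia array. Atf3 (0.44 ± 0.13), Cebpb (0.05 ± 0.19) and Ppp1r15b (0.15 ± 0.15) did not pass.

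Of 21 amino acid transporters 7 rose, and 3 to 6 when each of the 6 arrays was left out in turn. Slc7a11, the cystine importer, had 8.18, 8.14 and 8.14 in hypoxia, against 6.20, 5.86 and 6.30 in normoxia (2.03 ± 0.18, adjusted p = 2.40e-05), with no overlap. Slc7a3 was at least 1.78-fold higher, Slc1a4 rose by 1.21 ± 0.22, and both chains of the leucine transporter, Slc7a5 and Slc3a2, rose by 0.73 ± 0.13 and 0.69 ± 0.11. The calls of Slc1a4 and Slc7a5 ended without normoxia array 3 (adjusted p up to 0.0580 and 0.0546), and that of Slc1a2, at least 1.42-fold higher, whichever of the 6 arrays was left out (up to 0.141). Slc7a1, outside the naming rule, lost its call in 5 of these fits (up to 0.0714). Of 18 genes of amino acid synthesis and 1-carbon metabolism 4 rose and 1 fell, against 2 rises when any 1 of the 6 arrays was left out, and 9 rises and 3 falls in the fit of the 6 arrays alone. The folate enzymes Aldh1l2 and Mthfd1l rose by 1.59 ± 0.14 and 1.08 ± 0.12, and Shmt1 fell by 0.69 on the log2 scale (adjusted p = 0.0167, up to 0.0911 with 1 array left out). The calls of Mthfd2 (0.61 ± 0.15) and Aldh18a1 (0.79 ± 0.18) ended in each of those fits without 1 array (adjusted p up to 0.198 and 0.14). Asns, asparagine synthetase, missed the threshold at 0.58 ± 0.15 (adjusted p = 0.0699), and of 33 aminoacyl-tRNA synthetases Lars (0.70 ± 0.12), Sars (0.58 ± 0.13) and Nars (0.47 ± 0.11) rose, the calls of the last 2 ending whichever of the 6 arrays was left out (adjusted p up to 0.141 and 0.161).

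In the folding machinery of the endoplasmic reticulum few genes rose. Ero1a, the oxidase that makes disulfide bonds, had 11.37, 11.40 and 11.39 in hypoxia, against 8.27, 8.31 and 8.40 in normoxia (3.06 ± 0.14, adjusted p = 4.52e-08). Kdelr3, a receptor that returns folding proteins to the reticulum, had 8.16, 8.16 and 8.22 in hypoxia, against 6.07, 6.09 and 6.13 in normoxia (2.09 ± 0.13), while Kdelr1 and Kdelr2 had 0.27 ± 0.11 and 0.22 ± 0.10 and did not pass. The chaperone genes Hspa5 (−0.12 ± 0.10), Calr (−0.24 ± 0.11) and Hsp90b1 (0.01 ± 0.10) did not pass either. Of 23 chaperones and oxidoreductases, 3 rose (Ero1a, P4hb and the stress sensor Atf6 at 0.61 ± 0.12) and 1 fell, Sdf2l1 (−0.53 ± 0.12), with a median of 0.01, which was −0.0177 when each array's median was subtracted. The calls of Atf6 and Sdf2l1 ended whichever of the 6 arrays was left out (adjusted p up to 0.0920 and 0.127).

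Genes of metal, haem and redox handling moved in both directions. Mt2, a metallothionein, had 12.02, 12.45 and 12.39 in hypoxia, against 10.38, 10.40 and 10.31 in normoxia, and Mt1 rose by 0.79 ± 0.11. Hmox1, haem oxygenase, had 9.77, 9.75 and 9.82 in hypoxia, against 7.90, 7.90 and 7.79 in normoxia (1.92 ± 0.13, adjusted p = 1.07e-06), and Txnip, an inhibitor of thioredoxin and of glucose uptake, rose by 1.99 ± 0.17. Tfrc, the transferrin receptor for iron uptake, was lower in hypoxia, with 7.53, 7.55 and 7.55, against 8.30, 8.38 and 8.39 in normoxia. The fall was 0.82 on the log2 scale (adjusted p = 0.00246), the groups did not overlap, and it passed without each of the 6 arrays. The iron storage genes Fth1 and Ftl1 had 0.13 ± 0.10 and 0.13 ± 0.12. Of 20 genes of the NRF2 and antioxidant list 3 rose, the NRF2 targets Slc7a11 and Hmox1 and, with a separate role, Txnip, and Prdx1 (−0.28 ± 0.11) and Txn1 (−0.17 ± 0.11) did not pass.

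Lipid uptake and storage genes rose in part. Vldlr, a lipoprotein receptor, had 9.44, 9.48 and 9.41 in hypoxia, against 7.46, 7.53 and 7.31 in normoxia (2.01 ± 0.17, adjusted p = 1.67e-05). The fatty acid carrier Fabp5 rose by 1.22 ± 0.12 and the triglyceride enzyme Dgat2 by 1.19 ± 0.18, and the lipid droplet proteins Plin2 and Hilpda by 0.79 ± 0.14 and 0.55 ± 0.12. The call of Plin2 ended without hypoxia array 2 (adjusted p = 0.0512) and that of Hilpda whichever of the 6 arrays was left out (up to 0.148). These were 5 of 21 genes (median 0.26), and Fabp7, the carrier of neural progenitors, did not pass (−0.28 ± 0.11). In sterol and fatty acid synthesis 1 of 28 genes rose, while 2.11% of all transcript clusters did. It was Hmgcs1 (0.49 ± 0.12, adjusted p = 0.0461, up to 0.166 with 1 array left out).

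Genes of the IGF system and the NDRG family were among the large rises. Igfbp5, a secreted IGF-binding protein, had 9.63, 9.47 and 9.38 in hypoxia, against 6.80, 6.87 and 6.84 in normoxia (2.66 ± 0.18, adjusted p = 1.24e-06). Igfbp2 rose by 0.93 ± 0.13, and Igfbp3 (0.51 ± 0.14) and the insulin receptor Insr (0.51 ± 0.13) did not pass, with 2 of 14 genes of the system rising. Ndrg1 had 11.03, 10.83 and 10.80 in hypoxia, against 7.11, 6.76 and 6.78 in normoxia. It rose 16.1-fold (adjusted p = 1.53e-08), while Ndrg2 (0.40 ± 0.11) and Ndrg3 (0.15 ± 0.16) did not pass and Ndrg4 was below the floor. Of 13 mTOR regulators Ddit4 and Sesn2 (0.98 ± 0.17) rose, and Tsc1 (0.21 ± 0.20), Tsc2 and Mtor did not pass. Tsc1 was above the floor on all 6 arrays. Further genes among the 15 largest rises were Ankrd37, an ankyrin repeat protein and known HIF target, at least 12.95-fold, Selenbp1, a selenium-binding protein, at least 6.76-fold, and Vit, the matrix protein vitrin, at least 4.67-fold.

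DNA replication was the gene list with the highest share of falling members. Mcm3, a subunit of the replicative helicase, had 8.67, 8.65 and 8.84 in hypoxia, against 9.38, 9.42 and 9.34 in normoxia (−0.66 ± 0.11, adjusted p = 0.00598). Rpa1, which coats single-stranded DNA, had 9.09, 9.03 and 9.10 in hypoxia, against 9.80, 9.75 and 9.80 in normoxia (−0.71 ± 0.12, adjusted p = 0.00533). Neither gene's groups overlapped, and both calls held without each of the 6 arrays. Mcm10, which loads polymerase, fell by 0.80, Mcm2 fell by 0.68 and the primase subunit Prim1 fell by 0.62 on the log2 scale. The nuclease Dna2, not counted in the list, was at least 1.35-fold lower, and the G1/S cyclin Ccne1 had 7.03, 6.94 and 7.03 in hypoxia, against 7.94, 8.04 and 7.64 in normoxia (adjusted p = 0.0345).

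Of 42 measured genes of replication origins and forks 8 fell, 34 did not pass and the median change was −0.49. All 42 changes were negative, and in 40 of them every hypoxia array was below every normoxia array, an ordering that 16.2% of all transcript clusters showed. Pcna (−0.45 ± 0.12), Mcm5 (−0.60 ± 0.15) and Rrm1 (−0.52 ± 0.13) were just outside the threshold, with adjusted p between 0.0519 and 0.0619. The fit of the 6 DMSO arrays alone called 24 of the 42, and leaving out each of the 6 arrays in turn left 2 or 3. The calls of Mcm10, Mcm2, Prim1, Dna2 and Ccne1 each ended in at least 4 of those 6 fits (adjusted p up to 0.0794, 0.0979, 0.111, 0.0744 and 0.147).

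**Figure D5:**
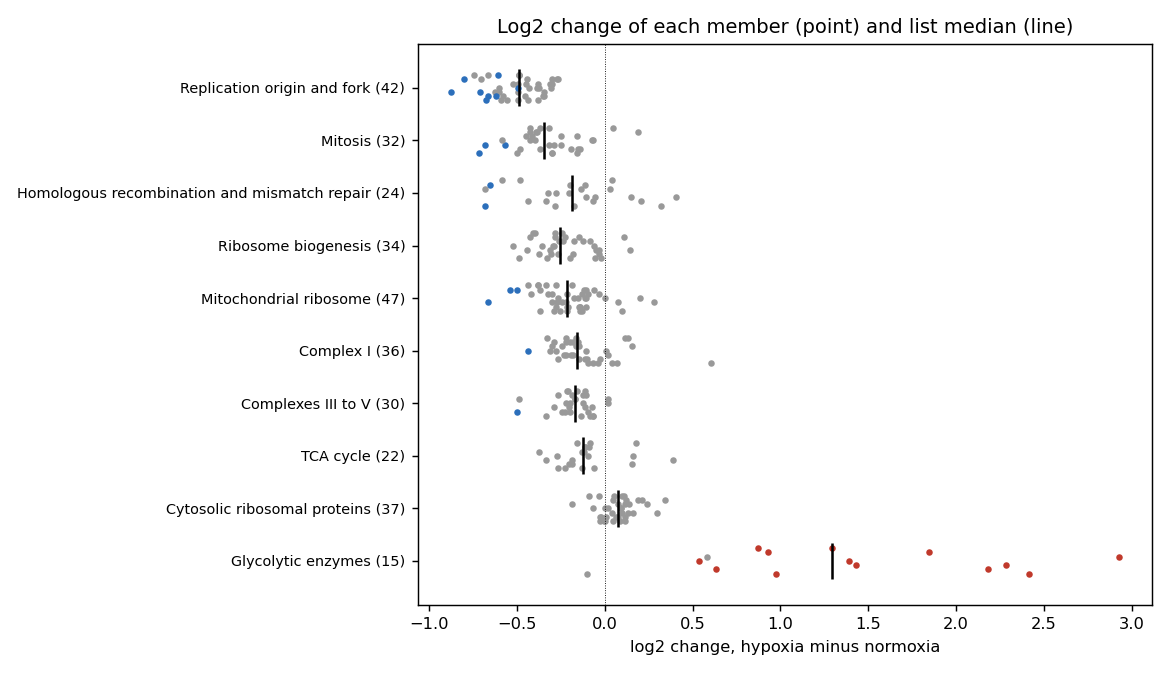
Log2 change in hypoxia against normoxia (horizontal axis) of each member of 10 gene lists, with a black line at the list median and the number measured in brackets. Red points rose, blue points fell and grey points did not pass; every replication gene lies below 0 (median −0.49), cytosolic ribosomal proteins lie near 0 (median 0.08) and glycolytic enzymes lie above (median 1.29).

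Mitosis and repair genes had smaller median shifts. Of 32 mitosis genes 3 fell, the kinetochore gene Nuf2 (−0.71 ± 0.14), the spindle checkpoint gene Mad2l1 (−0.68 ± 0.13) and the mitotic kinase Cdk1 (−0.56 ± 0.13), with a median of −0.34. In 25 of the 32 every hypoxia array was below every normoxia array, against 16.2% of all transcript clusters. The proliferation marker Mki67 did not pass (0.05 ± 0.15), with means of 10.40 in hypoxia and 10.35 in normoxia. Of 24 recombination and mismatch repair genes Rad54l (−0.68 ± 0.14) and Fanca (−0.65 ± 0.16) fell (median −0.18). The fit of the 6 arrays alone called 8 mitosis and 6 repair genes lower. All 5 calls ended in at least 3 of the fits without 1 array, with adjusted p up to 0.0764, 0.0686, 0.146, 0.101 and 0.171 in the order named. Of 13 cyclins and CDK inhibitors of G1, 4 rose. The CDK inhibitors Cdkn1a and Cdkn1b rose by 1.29 ± 0.14 (adjusted p = 2.03e-04) and 0.65 ± 0.11, and the atypical cyclin Ccng2 had 10.25, 10.42 and 10.26 in hypoxia, against 8.83, 8.80 and 8.66 in normoxia. Ccnd2 also rose (0.66 ± 0.16), a call that ended whichever of the 6 arrays was left out (adjusted p up to 0.191). Cdkn1a is a p53 target, and in these p53-/- cells 3 of 19 p53 target genes rose (Cdkn1a, Sesn2 and Rrm2b), 2 whichever of the 6 arrays was left out (adjusted p of Rrm2b up to 0.163) and 5 in the fit of the 6 arrays alone, with Mdm2 (0.05 ± 0.14) and Ccng1 (−0.10 ± 0.12) not passing. Trp53 itself was not analysed here.

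No gene of ribosome biogenesis passed, though most changes were negative. None of 34 ribosome biogenesis genes passed in limma, with 13 lower at an unadjusted p under 0.05 and 3 lower in the fit of the 6 arrays alone. Their median was −0.25, 32 of 34 changes were negative, and in 21 every hypoxia array was below every normoxia array, against 16.2% of all transcript clusters, while Npm1 had −0.05 ± 0.12. None of 37 cytosolic ribosomal protein genes passed in either fit, with 3 higher at an unadjusted p under 0.05 (median 0.08).

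Other falls were single genes of varied function. Sytl2, a partner of Rab27 in vesicle transport, had 7.85, 8.06 and 8.25 in hypoxia, against 9.18, 9.15 and 9.18 in normoxia (−1.12 ± 0.18, adjusted p = 0.00446). Pcolce2, which promotes procollagen processing, had 6.59, 6.32 and 6.24 in hypoxia, against 7.85, 7.23 and 7.39 in normoxia, and the cytokine-like gene Cytl1 had 7.49, 7.52 and 7.55, against 8.50, 8.49 and 8.56. In all 3 genes the groups were apart and the calls held without each of the 6 arrays. The RNA-binding protein gene Lsm2 (−0.89 ± 0.16), the R-spondin receptor gene Lgr5 (−0.85 ± 0.17), the cell cycle factor gene Tcf19 (−0.82 ± 0.16), the receptor gene Tnfrsf18, above the floor on 1 hypoxia array, and the mitochondrial cyclophilin gene Ppif (−0.69 ± 0.16) were next. The lectin gene Clec2l was at least 1.34-fold lower. Their calls were less stable, and ended without hypoxia array 1 for Lsm2 and in 5 or 6 of the 6 fits that each left out 1 array for the others (adjusted p up to 0.0577 for Lsm2 and 0.155 for Clec2l).

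The identity of the cells was checked against marker genes. All 6 measured oligodendrocyte progenitor markers were above the floor, with a mean log2 signal per array of 10.07 to 10.16 in hypoxia, against 10.11 to 10.21 in normoxia. None passed in limma in either fit, with 1 higher at an unadjusted p under 0.05. Olig1 (−0.22 ± 0.16), Olig2 (−0.19 ± 0.11), Sox10 (−0.22 ± 0.12) and Cspg4 (0.47 ± 0.17) were among the genes that did not pass. Pdgfra was not analysed here. S100b, whose promoter drives the oncogene, had a mean of 9.68 in hypoxia, against 9.61 in normoxia (0.07 ± 0.13). Egfr lay under the floor throughout, and none of 13 ERBB receptor and ligand genes passed in limma in either fit, with 1 lower at an unadjusted p under 0.05. Of the wider progenitor list 1 of 12 genes rose, Lhfpl3 (0.54 ± 0.10), and of 16 myelin genes 1 fell, Ugt8a (−0.59 ± 0.11), the enzyme that makes galactosylceramide. Both calls ended in at least 3 of the fits without 1 array (adjusted p up to 0.0666 and 0.0670). Mbp, which encodes myelin basic protein, had means of 11.51 in hypoxia and 11.57 in normoxia.

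Most markers of other cells were below the floor in both groups. All 8 markers of microglia and macrophages and all 7 of endothelial cells were below the floor on all 6 arrays, as were 6 of 7 markers of fibroblasts and pericytes, 5 of 8 of neurons, 4 of 7 of astrocytes and 3 of 5 of myelinating oligodendrocytes. Mean log2 signals per array were 3.15 to 3.45 in hypoxia, against 3.25 to 3.46 in normoxia, for microglia and macrophages, and 3.44 to 3.52, against 3.34 to 3.41, for endothelial cells. For astrocyte markers they were 5.70 to 5.84 in hypoxia, against 5.38 to 5.61 in normoxia, with Gfap and Aqp4 below the floor, S100b well above it and Slc1a2 the member that rose. For myelinating oligodendrocytes they were 6.66 to 6.78 in hypoxia, against 6.95 to 7.03 in normoxia, with Mbp far above the floor and none past the threshold, and the part of these cells in any result was not tested. Of 24 NF-kB and cytokine genes Tnfaip3 (1.59 ± 0.20), a brake on NF-kB, Mif (1.10 ± 0.11), an inflammatory cytokine, and Ptgs2, below the floor in both groups, passed. When each of the 6 arrays was left out in turn, 2 or 3 of the 24 rose. The fit of the 6 arrays alone called 3 higher and 1 lower. None of 19 interferon response genes passed in limma in either fit. At an unadjusted p under 0.05, 3 of them were higher, against 3507 of all 22206 transcript clusters in either direction. Of 24 outputs of ERK, the kinase downstream of ERBB receptors, Ier3 rose (1.12 ± 0.14), while 2.11% of all transcript clusters rose. The fit of the 6 arrays alone called 1 ERK output higher and 2 lower.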

How the data were processed

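RNA extracted with Trizol was labelled with a WT Plus kit and hybridised to Clarion S mouse arrays, per the labels' protocols. The values are log2 signals that the authors deposited after RMA in Affymetrix Expression Console, per the submitters' processing notes; the versions are not given in the sources used here. They were used as deposited. limma 3.58.1 in R 4.3.3 (lmFit and eBayes) was fitted to all 12 arrays, with the hypoxia DMSO minus normoxia DMSO contrast, 8 residual degrees of freedom and Benjamini-Hochberg adjustment over 22206 transcript clusters. The procedure was tested on simulated data. The 6640 control entries were left out, of which 5222 negative controls set the floor. The probe with the highest mean stood for a gene. An exact permutation test of 3 against 3 arrays cannot go below 0.1.

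The members and gene lists were chosen with earlier results of these data known. The text names the 15 largest rises and the 15 largest falls among genes past the threshold and without overlap between the groups, and up to 6 members past the threshold and 3 others of each of 65 lists, together with all members of the small families and S100b, Egfr and Tsc1. Named rises and falls had to lie above the floor on all 3 arrays of at least 1 group. Kdm4a, Slc7a1, Pfkm, Gapdh, Cebpg and Stc2 were named after their values were seen, as were the clock repressors listed without values. Alternatives changed the normalization, the filter on dim probes, the variance model, the array weights, the arrays in the fit and the replicate block.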

Additional observations from a re-analysis of the deposited data

How the results depend on the processing

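No called gene named here changed direction under any of the 21 alternatives, and 87 of the 147 passed in all of them. The 593 calls (468 rises, 125 falls) became 1247 (790 and 457) among transcript clusters above the floor on at least 3 arrays, 1221 (766 and 455) with a trended, robust variance, 2258 (1265 and 993) with array weights and 1234 (819 and 415) with the 6 DMSO arrays alone, and the falls became 270 without the dimmest 25%. The cause was not tested, except that the filters test fewer probes. The share of rises among calls was 78.9%, against 56% with array weights, 62.7% with the trended variance, 63.4% with the floor filter and 66.4% with the 6 arrays, and both rescalings moved it by less than 10 points. Leaving out 1 of the 12 arrays gave 254 to 898 calls, 228 to 629 rises and 23 to 269 falls, the highest without BFA array 1. Leaving out 1 array in the 6-array fit, an alternative chosen after seeing the data, gave 338 to 595 calls, 297 to 480 rises and 41 to 115 falls, among them 365 calls and 46 falls without normoxia array 2 and 72 falls without hypoxia array 3. In that fit a group of 2 arrays borrows its spread from the other. Of the named calls, 81 of 116 rises and 6 of 31 falls passed without each of the 6 DMSO arrays. The labels do not say that equal numbers mark a shared culture, so the numbers were not taken as pairs. The deviations of equally numbered arrays had correlations of 0.07, 0.00 and 0.02, and those of unequally numbered arrays lay between −0.0852 and 0.07. With 3 arrays in each group these values cannot settle whether the numbers mark pairs. The replicate block gave 442 calls (377 and 65), and 467 (400 and 67) with the 6 arrays alone. The precision is limited by 3 arrays in each group, and for dim genes by the signal over background.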

Other observations

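The genes of this paragraph and the next are single genes outside the naming rule, chosen after their values were seen, and stand for no group. Ak4, an adenylate kinase of mitochondria, had means of 9.38 in hypoxia and 7.04 in normoxia (adjusted p = 5.22e-07, limma), and Me1, the cytosolic malic enzyme that makes NADPH, had 9.77 in hypoxia and 8.37 in normoxia. Ldha, the lactate dehydrogenase subunit that favours lactate, had 12.12 in hypoxia and 10.83 in normoxia (adjusted p = 3.32e-05). Pck2, the mitochondrial form of PEPCK, rose by 1.05 on the log2 scale, and Arrdc4, a relative of Txnip that lowers glucose uptake, rose by 1.39.

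Single genes that fell included histone genes, of which no tally was made. H2bc18 had means of 9.98 in hypoxia and 10.62 in normoxia (adjusted p = 0.00763, limma), H4c3 and H2ac1 each fell by 0.63 and H1f1 fell by 0.59 on the log2 scale. Histone genes are near-identical copies whose probes can share signal, so single members are uncertain. Chaf1a, which places histones on newly made DNA, fell by 0.66, and the histone chaperone gene Asf1b fell by 0.51. The nuclear pore and export genes Nup85, Nup93 and Cse1l fell by 0.65, 0.60 and 0.58. Whether the calls of this paragraph hold without 1 of the 6 DMSO arrays was not examined gene by gene. Of all 125 falls, 21 to 25 were kept in those fits.

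Smaller lists had single members past the threshold. Over all transcript clusters 2.11% rose and 0.563% fell, so a single call says little about its list. Dner, a Notch ligand, was the 1 of 20 Notch genes that rose (0.90 on the log2 scale), Klf9 the 1 of 14 KLF factors (0.71, a call that ended without normoxia array 3, adjusted p = 0.05002), and Tagln2 the 1 of 22 SRF and YAP targets that fell (−0.52, a call that ended whichever of the 6 DMSO arrays was left out, adjusted p up to 0.125).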
